A study of Homo sapiens with 15 samples.

Results

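Zinc transporters, metallothioneins and the zinc-sensing factor MTF1 were examined in PEO1, an established line of human ovarian cancer cells, after sorting on CD90 and CD133 at the cell surface. The 10 genes were taken as named: the importers SLC39A4, SLC39A6, SLC39A7, SLC39A8, SLC39A10 and SLC39A14, the exporter SLC30A1, the metallothioneins MT1X and MT2A, and MTF1. They were 10 of 19775 genes measured, and 25 of the 54613 probe sets of the array are annotated to one of them alone. Parental PEO1 cells, untreated, were stained with antibodies to both proteins and a dead-cell dye and sorted. Total RNA of double-negative (CD90-/CD133-), single-positive (CD90+/CD133-) and double-positive (CD90+/CD133+) cells was run on 5 arrays per fraction. All 15 arrays come from 1 cell line, and no treatment or genotype differed between the fractions. SLC39A4 was selected on its measured difference between these fractions, the other members by name as its family or as zinc-responsive genes. The values of SLC39A4 are therefore given as a description without a test, and the question was whether the other 9 genes differed along with it. Because each array averages a sorted population, a higher share of cells with a transcript and more transcript per cell cannot be told apart.

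Cells hold nearly all of their zinc bound to protein. Transporters of the SLC39 (ZIP) family bring zinc into the cytosol from outside or from organelles, those of the SLC30 (ZnT) family carry it out of the cytosol, and metallothioneins are small cysteine-rich proteins that bind it. When cytosolic zinc rises, the transcription factor MTF1 binds metal response elements and switches on the metallothioneins and SLC30A1, which makes these genes a common readout of zinc load. SLC39A4, an importer of the plasma membrane whose loss causes the zinc deficiency disorder acrodermatitis enteropathica, is best known in cancer from pancreatic tumours.

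The promoters of the readout genes are shown here with matches to the core of the metal response element, which MTF1 binds. RefSeq promoters of 8 of the 10 genes were at hand (GRCh38.p14), and the 250 bases before each transcription start were searched on both strands for the element's core, spelled TGCACNC or TGCGCNC. A stretch cannot match both spellings at 1 position. The MT2A promoter (chr16:56608334-56608583, plus strand) holds 7 cores, the MT1X promoter (chr16:56682220-56682469, plus strand) holds 4 and the SLC30A1 promoter (chr1:211579162-211579411, minus strand) holds 1. The cores are in capitals below, and each sequence runs 5′ to 3′ on the gene's strand and ends at the base before the start.
MT2A: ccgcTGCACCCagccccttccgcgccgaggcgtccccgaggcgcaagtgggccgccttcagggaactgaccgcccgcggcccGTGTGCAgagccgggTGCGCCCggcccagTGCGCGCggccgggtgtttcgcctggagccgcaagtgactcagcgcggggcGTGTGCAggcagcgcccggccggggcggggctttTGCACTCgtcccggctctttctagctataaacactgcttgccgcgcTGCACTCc
MT1X: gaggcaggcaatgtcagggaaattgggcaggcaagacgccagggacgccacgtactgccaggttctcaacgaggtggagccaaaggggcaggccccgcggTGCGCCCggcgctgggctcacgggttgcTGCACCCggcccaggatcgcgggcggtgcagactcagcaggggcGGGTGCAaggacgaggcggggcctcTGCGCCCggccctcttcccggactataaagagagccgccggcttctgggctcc
SLC30A1: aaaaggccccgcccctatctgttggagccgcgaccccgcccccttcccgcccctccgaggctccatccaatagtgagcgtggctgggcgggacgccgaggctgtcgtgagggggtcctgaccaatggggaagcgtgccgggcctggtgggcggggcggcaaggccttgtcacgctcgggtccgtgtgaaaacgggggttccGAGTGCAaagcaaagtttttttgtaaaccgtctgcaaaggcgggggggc
Of 35116 promoters of the same length, 24.8% hold at least 1 core, 0.37% hold at least 4 and 0.0313% hold at least 7. The promoter of SLC39A6 holds 1 core, 1 of the 3 listed for SLC39A8 holds 1, and those of SLC39A7, SLC39A10 and MTF1 hold none in this window. SLC39A4 and SLC39A14 were not among the promoters. A core is a match of letters and not a bound site.

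Values are probe-set intensities on a linear scale as deposited, with values under 16 set to 16. Differences are log2 changes between fractions from limma over all genes, in a fit of all 15 arrays with the replicate number as a block, and a gene was called at an adjusted p under 0.05. A probe set's brightness depends on its sequence, so levels are compared between arrays and not between genes. The sort markers followed the gates. THY1, which encodes CD90, had geometric means of 76.3, 971 and 1417 in the double-negative, CD90+/CD133- and double-positive fractions, and PROM1, which encodes CD133, had 21.4, 42.2 and 876. Of 9 markers of ovarian carcinoma epithelium 1 (SOX17) was at the lowest value on all 15 arrays, and the summed intensity of the list was 43870 to 51260, 32950 to 38810 and 29340 to 35810 in the 3 fractions. The keratin genes KRT7, KRT8 and KRT18 were lower in both CD90+ fractions, while EPCAM (0.33 and 0.27) and MECOM (2.98 and 2.81) were higher, so the list did not move one way. The leukocyte list (3 of 4 genes measured) summed to 94.9 to 119.3, 143.1 to 201.3 and 126.4 to 216.5, with CD14 higher in both CD90+ fractions (0.96 and 1.00, limma adjusted p = 0.00356 and 0.00292) and PTPRC at the lowest value on all arrays. The lists for endothelium (81.57 to 116 over all arrays) and fibroblasts (177.9 to 267.3) also had a defining marker, CDH5 and LUM, at the lowest value throughout, though among fibroblast genes DCN was higher in CD90+/CD133- cells (0.33, limma adjusted p = 0.0191) and COL1A1 in CD90+/CD133+ cells (0.26, adjusted p = 0.0386). Whether these marker differences had a part in the results below was not tested.

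SLC39A4 was dim in CD90-/CD133- cells and far brighter in both CD90+ fractions. Its single probe set (219215_s_at) read 18.86, 23.87, 47.53, 26.33 and 20.81 on the CD90-/CD133- arrays, replicates 1 to 5. The CD90+/CD133- arrays read 911.7, 879, 485.1, 685 and 243.4. The CD90+/CD133+ arrays read 853.9, 728.4, 433.3, 653.2 and 398.6. The lowest CD90+ array was 5.12-fold above the highest CD90- array, and the CD90+ fractions overlapped each other. The mean log2 difference was 4.48 for CD90+/CD133- cells (22.3-fold, from 3.35 to 5.6 over the 5 same-numbered pairs) and 4.50 for CD90+/CD133+ cells (22.7-fold, 3.19 to 5.50). The CD90+ fractions differed by 0.02 on average, between -0.27 and 0.71 over the pairs. Among 19775 genes SLC39A4 had the fourth highest change in CD90+/CD133- cells and the sixth highest in CD90+/CD133+ cells. Because the CD90-/CD133- values are dim, these folds depend on the lowest value allowed, and setting all values under 64 to 64 gave 3.18 and 3.20. The 30 expressed genes nearest to SLC39A4 on chromosome 8 had a median log2 change of 0.17 in CD90+/CD133- cells, between -0.11 and 0.90. Of them 11 were called higher and 0 lower. In CD90+/CD133+ cells the median was 0.13, between -0.23 and 0.88, with 9 called higher and 0 lower. Of the 9988 genes with a mean log2 of at least 6, 52.7% and 50.7% were called in either direction.

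**Figure D1:**
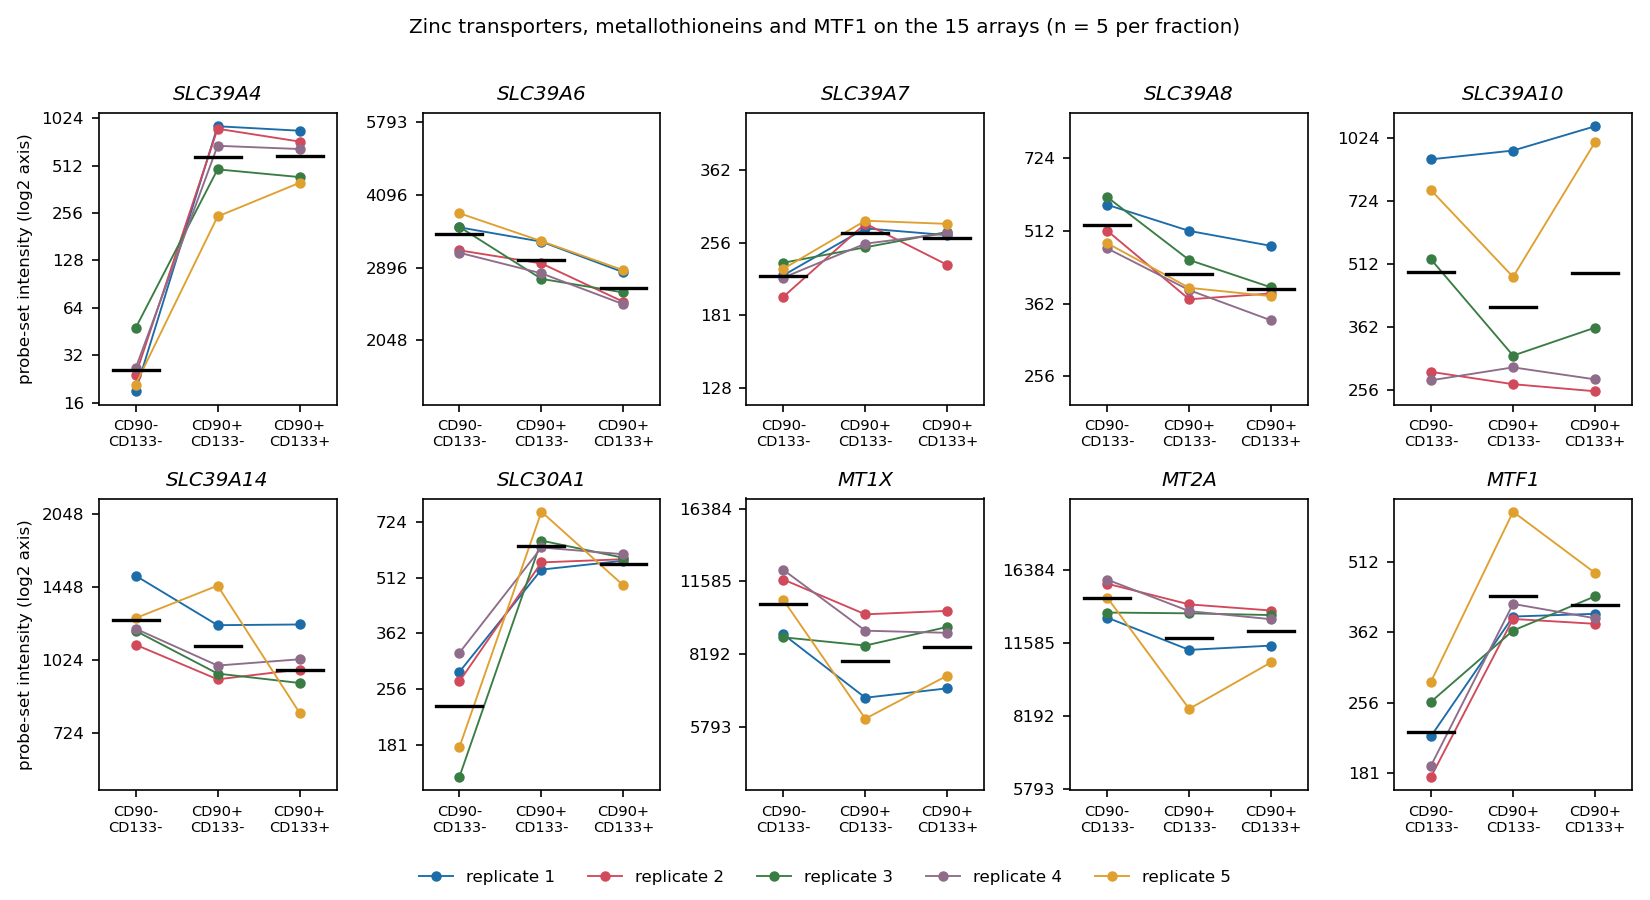
Intensity of each gene's brightest probe set (log2 axis, scaled for each gene) in the 3 fractions, with 1 line per replicate number and a black bar at the geometric mean of 5 arrays. SLC39A4, SLC30A1 and MTF1 are higher on every CD90+ array than on every CD90-/CD133- array, MT1X and MT2A overlap, and the lines of SLC39A10 differ by replicate number (from 254.8 to 1091) more than by fraction.

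Of the 9 other genes, 6 changed in CD90+/CD133- cells against CD90-/CD133- cells. SLC30A1, MTF1 and SLC39A7 were higher, and SLC39A6, SLC39A8 and MT1X were lower. Over all genes 32.4% were called in this comparison, 14.8% higher and 17.6% lower. All 9 members had a mean log2 of at least 6, and of the 9988 genes at that level 52.7% were called, so the count by itself does not set them apart. In CD90+/CD133+ cells 6 of 9 were called as well, with the same genes in the same directions, against 31.2% of all genes (14.2% higher, 17.0% lower) and 50.7% of the brighter ones. Both comparisons use the same 5 CD90-/CD133- arrays, so the second is not independent of the first. The median log2 change of the 9 genes was -0.18 and -0.22, beside 0.00 over all genes in both comparisons. Between the CD90+ fractions 1 of the 9 (SLC39A6) was called, lower, with 4.61% of all genes called (2.30% higher, 2.31% lower) and 8.01% of the brighter ones. By the methods' rule, a 1.5-fold ratio of arithmetic means, 2 of the 9 (SLC30A1 and MTF1) passed in each CD90+ fraction against CD90-/CD133- cells and none passed between the CD90+ fractions, beside 13.7%, 13.3% and 1.10% of all genes. Of the 24 probe sets of the 9 genes, 6 were higher and 6 lower in CD90+/CD133- cells, likewise 6 and 6 in CD90+/CD133+ cells, and 2 were lower between the CD90+ fractions, beside 22.7%, 21.3% and 2.97% of all probe sets called in either direction.

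SLC30A1 and MTF1 were higher in both fractions in which SLC39A4 was high. SLC30A1, the plasma membrane exporter, read 285.2, 268.9, 148.8, 321.1 and 178.9 on the CD90-/CD133- arrays (212907_at). It read 537.8, 562.4, 643.8, 616.8 and 769.9 on the CD90+/CD133- arrays and 568.3, 573.5, 578.5, 591.5 and 487.3 on the CD90+/CD133+ arrays. The highest CD90-/CD133- array lay below the lowest CD90+ array. The log2 change was 1.43 (2.69-fold, standard error 0.205, limma adjusted p = 8.1e-04) in CD90+/CD133- cells and 1.28 (2.42-fold, adjusted p = 0.00157) in CD90+/CD133+ cells. The pairs with the smallest difference in SLC39A4 had the largest in SLC30A1. In CD90+/CD133- cells the pairs of replicates 1 to 5 differed by 5.6, 5.2, 3.35, 4.7 and 3.55 for SLC39A4 and by 0.92, 1.06, 2.11, 0.94 and 2.11 for SLC30A1. All values of a CD90+ fraction lay above those of CD90-/CD133- cells for 7.72% and 8.07% of all genes, and below them for 8.78% in CD90+/CD133+ cells. These shares include genes at the lowest value on all arrays, which cannot separate, and were not taken over the brighter genes alone. A second probe set of SLC30A1 (228181_at) was higher by 0.99 and 0.78 (limma adjusted p = 0.0106 and 0.0337), and the third read the lowest value on all 15 arrays. The 30 expressed neighbours of SLC30A1 on chromosome 1 had median changes of -0.19 and -0.24.

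MTF1 read 217.4, 178, 257.4, 188.1 and 284.2 on the CD90-/CD133- arrays (227150_at). It read 391.1, 386.5, 365.1, 416.2 and 654.5 on the CD90+/CD133- arrays and 396.4, 377.4, 432, 387.8 and 484.5 on the CD90+/CD133+ arrays. Every CD90+ array was above every CD90-/CD133- array, and CD90+/CD133- replicate 5 stood above the rest. The log2 change was 0.96 (1.95-fold, standard error 0.103, limma adjusted p = 1.63e-04) and 0.90 (1.87-fold, adjusted p = 2.39e-04). Its other probe sets were also higher with no overlap, by 0.79 and 0.47 in CD90+/CD133- cells and by 0.65 and 0.37 in CD90+/CD133+ cells. The 30 expressed neighbours of MTF1 had median changes of 0.23 and 0.16. Neither SLC30A1 nor MTF1 was called between the CD90+ fractions, where the log2 differences were -0.15 (95% interval -0.62 to 0.32) and -0.06 (-0.30 to 0.17). Intervals here are those of single genes and are not adjusted over all genes.

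MT1X and MT2A, the metallothioneins among the members, did not rise with them. MT1X read 9006, 11690, 8881, 12240 and 10610 on the CD90-/CD133- arrays (208581_x_at). It read 6663, 9907, 8540, 9165 and 6032 on the CD90+/CD133- arrays and 6968, 10070, 9331, 9072 and 7403 on the CD90+/CD133+ arrays. The fractions overlapped, while within a replicate number the CD90+/CD133- array was below the CD90-/CD133- array in 5 of 5 pairs. The log2 change was -0.39 (95% interval -0.61 to -0.17, standard error 0.0966, limma adjusted p = 0.0133) in CD90+/CD133- cells and -0.29 (-0.51 to -0.07, adjusted p = 0.049, lower in 4 of 5 pairs) in CD90+/CD133+ cells. The first call was lost without replicate number 1 or 4 (adjusted p = 0.0627 and 0.0606), the second in 16 of 20 fits that left out an array or a replicate number, and both without the block (adjusted p = 0.10 and 0.247). A second probe set annotated to MT1X (204326_x_at) was lower on every CD90+ array than on every CD90-/CD133- array, by 0.80 and 0.75 (limma adjusted p = 0.00233 and 0.00345). The transcript accession listed for it is that of MT1L in the RefSeq table, so which gene it reads is uncertain.

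MT2A read 13080, 15370, 13400, 15670 and 14390 on the CD90-/CD133- arrays (212185_x_at). It read 11220, 13930, 13350, 13490 and 8475 on the CD90+/CD133- arrays and 11450, 13530, 13240, 12980 and 10580 on the CD90+/CD133+ arrays. The fractions overlapped, and both CD90+ fractions were below the same-numbered CD90-/CD133- array in 5 of 5 pairs. The log2 changes were -0.27 (95% interval -0.48 to -0.06, limma adjusted p = 0.0523) and -0.22 (-0.43 to -0.01, adjusted p = 0.107), neither of them called. In the first comparison MT2A was called under quantile normalization (adjusted p = 0.0149), with a floor of 1 (0.0364), with only genes of a mean log2 of at least 6 (0.0205), and without replicate number 3 or 5 or CD90-/CD133- replicate 3 (0.0472, 0.0407 and 0.029). In the second it was called under quantile normalization (0.0418) and without replicate number 5 or CD90+/CD133- replicate 5 (0.0271 and 0.0152). The intervals of both metallothioneins ended below 0 in both comparisons, while those of SLC30A1 began at 0.96 and 0.81. The 30 expressed neighbours of each on chromosome 16, other metallothioneins among them, had median changes of -0.25 and -0.095 in CD90+/CD133- and CD90+/CD133+ cells. MT2A (-0.27 and -0.22) was near the first of these medians and below the second, and MT1X (-0.39 and -0.29) was below both. Neighbours that are metallothioneins may share signal with these 2 genes, so the medians are not independent of them. MT1X and MT2A are read by probe sets of the _x_at class, which can match several near-identical metallothionein transcripts, and their values may hold signal of each other. They are also among the brightest on the array, where the highest value on an array was 20493 to 22494, and whether saturation narrowed their differences was not tested.

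**Figure D2:**
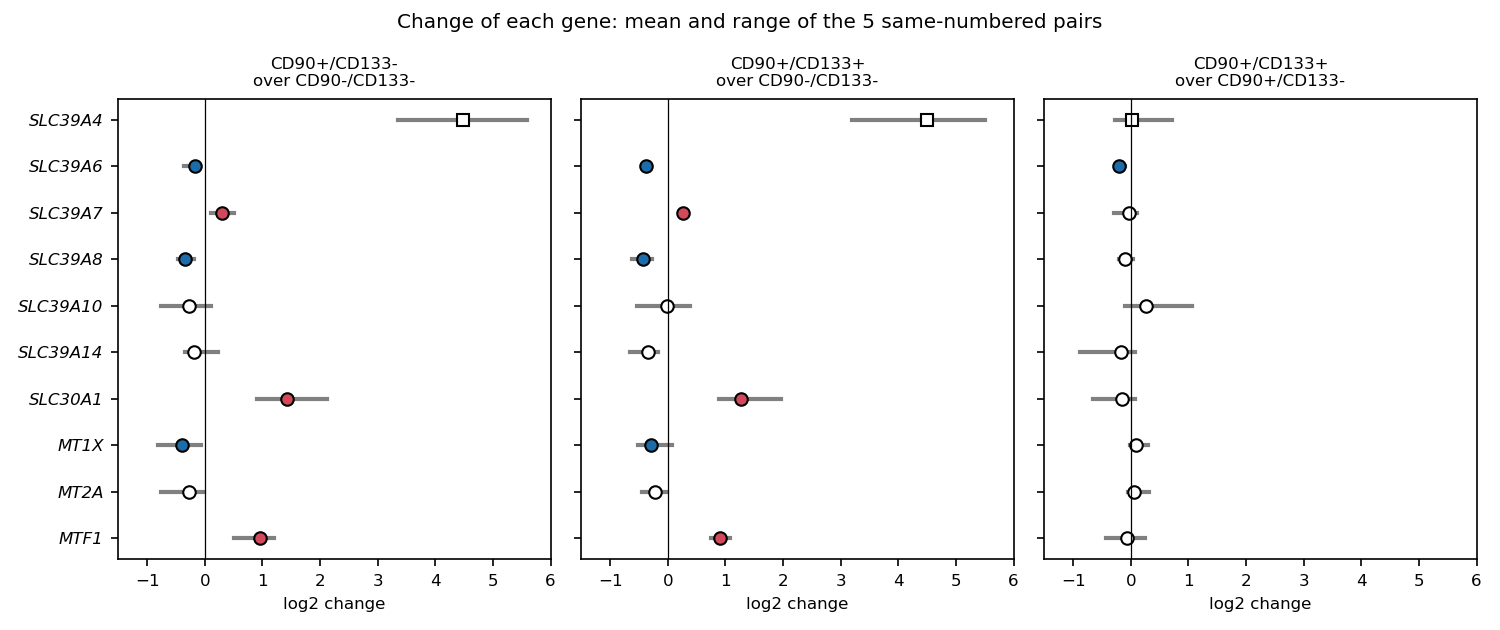
Mean log2 change (points) and range over the 5 same-numbered pairs (grey bars) for the 3 comparisons of fractions. Red and blue points were called higher and lower by limma, open points were not called, and the open square is SLC39A4, given without a test. SLC39A4 lies at 4.48 and 4.50 against CD90-/CD133- cells and at 0.02 between the CD90+ fractions, and SLC30A1 and MTF1 lie above 0 in the first and second panels (1.43 and 0.96 in the first).

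The other importers moved little, and more of them down than up. SLC39A7, which releases zinc from the endoplasmic reticulum, spanned 197.8 to 232.6 in CD90-/CD133-, 250.3 to 284.1 in CD90+/CD133- and 230.2 to 279.8 in CD90+/CD133+ cells. It was higher by 0.30 (limma adjusted p = 0.00284) and 0.26 (adjusted p = 0.00565), in 5 of 5 pairs in both comparisons. SLC39A6, a plasma membrane importer induced by oestrogen and also called LIV-1, was bright throughout, at 3107 to 3749, 2744 to 3283 and 2432 to 2858. It was lower by 0.18 (limma log2 change -0.18, adjusted p = 0.0041) and by 0.37 (-0.37, adjusted p = 7.43e-05), and the CD90+/CD133+ arrays were all below the CD90-/CD133- arrays. SLC39A6 was also the gene called between the CD90+ fractions (log2 change -0.20, adjusted p = 0.0234, lower in 5 of 5 pairs). That call was lost in 11 of 20 fits that left out an array or a replicate number (adjusted p up to 0.134) and without the block (0.251), where the first of its calls was lost too (0.109).

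The 4 probe sets of SLC39A6 did not move alike. Against CD90-/CD133- cells, 3 of them were lower in both CD90+ fractions. The fourth (1556551_s_at) was at 0.16 in CD90+/CD133- cells (not called) and lower in CD90+/CD133+ cells (-0.62, limma adjusted p = 0.0019). Between the CD90+ fractions it was lower by a log2 change of -0.78 (adjusted p = 0.0147) without overlap. The 30 expressed neighbours of SLC39A6 on chromosome 18 had median changes of -0.31 and -0.38, with 16 and 19 of them called lower. The brightest probe set of SLC39A6 (-0.18 and -0.37) changed no more than these medians. Of the others, 202089_s_at was at -0.46 and -0.48, 1555460_a_at at -0.37 and -0.38, and 1556551_s_at at 0.16 and -0.62.

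SLC39A8, which carries zinc, manganese and cadmium, was at 470.6 to 600.6, 369.4 to 511.4 and 334.1 to 476.2. It was lower by log2 changes of -0.33 (limma adjusted p = 0.00106) and -0.44 (adjusted p = 2.52e-04), in 5 of 5 pairs each, with ranges that overlapped at their ends. Its neighbours on chromosome 4 had median changes of -0.25 in CD90+/CD133- cells and -0.26 in CD90+/CD133+ cells. Of the 6 probe sets of SLC39A8, only the brightest was called in either comparison with CD90-/CD133- cells. SLC39A14, which takes up manganese and iron besides zinc, was at 1102 to 1530, 934.4 to 1459 and 796.8 to 1213, with log2 changes of -0.18 (95% interval -0.47 to 0.10) and -0.34 (-0.63 to -0.06, limma adjusted p = 0.0698). Neither was called, and both were called when CD90+/CD133- replicate 5 was left out (adjusted p = 0.0089 and 0.00388). That array had the highest value of its fraction, and it enters the second comparison only through the estimate of spread.

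SLC39A10, a plasma membrane importer that can pair with SLC39A6, varied by replicate number rather than by fraction. It read 909.9, 283.4, 525.3, 270.6 and 768 on the CD90-/CD133- arrays, 954.8, 264.9, 309.9, 290.5 and 477.2 on the CD90+/CD133- arrays and 1091, 254.8, 361.3, 272 and 1000 on the CD90+/CD133+ arrays. Replicates 2 and 4 were the lowest in every fraction and replicate 1 was the highest. The log2 changes were -0.27 (95% interval -0.69 to 0.14) and -0.01 (-0.43 to 0.41), neither of them called. When the sum of squares of log2 intensity over all arrays was divided, 89.9% of that of SLC39A10 lay between replicate numbers and 2.6% between fractions. The medians over 9988 expressed genes were 35.2% and 40.1%. For SLC39A4, SLC30A1 and MTF1 the share between fractions was 93.7%, 84.6% and 76.7%, and for MT1X and MT2A the share between replicate numbers (48.0% and 46.3%) exceeded that between fractions (35.2% and 29.1%). Random spread alone gives 5 replicate numbers a larger share than 3 fractions, so the excess for MT1X and MT2A does not show that replicate number mattered more. A replicate number carries a code that the labels share between fractions, and what else its arrays share is not given in the sources used here.

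**Figure D3:**
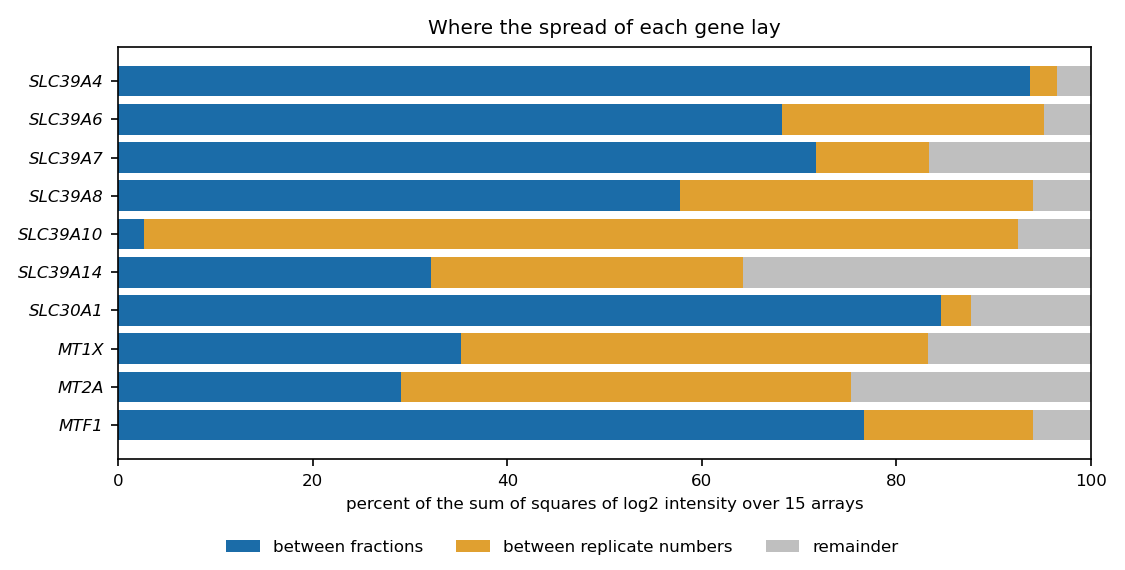
Share of the sum of squares of log2 intensity over 15 arrays that lay between the 3 fractions (blue), between the 5 replicate numbers (orange) and in neither (grey), for each gene. SLC39A4 is almost wholly blue (93.7%), SLC39A10 almost wholly orange (89.9%), and the metallothioneins have more orange than blue. Random spread alone gives 5 replicate numbers a larger share than 3 fractions.

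Over the SLC39, SLC30 and metallothionein families, 6 of 33 genes tested were higher and 9 lower in CD90+/CD133- cells, and 6 were higher and 5 lower in CD90+/CD133+ cells. The shares of all genes given above (32.4% and 31.2%, or 52.7% and 50.7% of the brighter ones) are the background of these counts and of those of each list below, and the counts do not set the families apart from it. The lower calls depended on the fit. In CD90+/CD133- cells the split was 6 higher and 3 lower with those fractions alone, 4 and 3 without the replicate block, and 4 and 0 with the 1.5-fold rule. Of 10 SLC30 genes 4 were higher and none lower in CD90+/CD133- cells, with a median log2 change of 0.12. Besides SLC30A1 these were SLC30A6 (0.74, limma adjusted p = 1.23e-04) of the Golgi, SLC30A9 (0.74, adjusted p = 1.80e-04) of mitochondria and SLC30A4 (0.21, adjusted p = 0.0489). In CD90+/CD133+ cells SLC30A6 (0.58) and SLC30A9 (0.54) were higher again, SLC30A4 was at 0.03 and not called, and SLC30A7 of the early secretory pathway was lower (-0.35, limma adjusted p = 0.0356). Of the 13 SLC39 genes other than SLC39A4, 1 (SLC39A7) was higher and 6 were lower in CD90+/CD133- cells (median -0.21), and in CD90+/CD133+ cells 1 was higher and 3 were lower.

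SLC39A11 was lower in both CD90+ fractions (-0.42 and -0.49). SLC39A1 and SLC39A3, both importers of the plasma membrane, were lower in CD90+/CD133- cells (-0.24 and -0.41). Both were called higher in double-positive cells when the CD90+ fractions were compared (log2 changes 0.24 and 0.48, limma adjusted p = 0.0402 and 0.0323). No gene of the families was called in this last comparison with its own 10 arrays alone or without replicate number 1, 2, 4 or 5, and 1 was called without the replicate block. The log2 gap between 3′ and 5′ control probes, a sign of RNA integrity, was largest in CD90+/CD133- cells, where SLC39A1 and SLC39A3 were lowest. It averaged 0.0565, 0.186 and 0.0498 for GAPDH and 1.84, 2.46 and 1.70 for ACTB in the fractions in the order CD90-/CD133-, CD90+/CD133-, CD90+/CD133+. Its part in these differences was not tested.

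Of 13 metallothionein genes 10 were measured. In CD90+/CD133- cells 3 were lower (MT1X, MT1G at -0.28 and MT1HL1 at -0.30) and 1 was higher, with a median of -0.27, and in CD90+/CD133+ cells MT1X was lower and MT1M and MT3 were higher, with a median of -0.09. The gene that was higher in both was MT1M. It read 234.2, 643.3, 302.7, 645.6 and 371 on the CD90-/CD133- arrays, 495.2, 1689, 1214, 1392 and 586.5 on the CD90+/CD133- arrays and 653.8, 2032, 1600, 1618 and 964.6 on the CD90+/CD133+ arrays. Every CD90+/CD133+ array lay above every CD90-/CD133- array, the CD90+/CD133- arrays overlapped with both, and each CD90+ array was above the CD90-/CD133- array of its number. The log2 changes of MT1M were 1.25 (standard error 0.174, limma adjusted p = 6.75e-04) and 1.65 (adjusted p = 1.52e-04). The gap between 3′ and 5′ control probes given above was likewise largest in CD90+/CD133- cells, and its part in the lower metallothionein values there was not tested. Near-identical metallothionein transcripts can share signal, so the 3 lower calls may not be separate, which was not tested either.

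**Figure D4:**
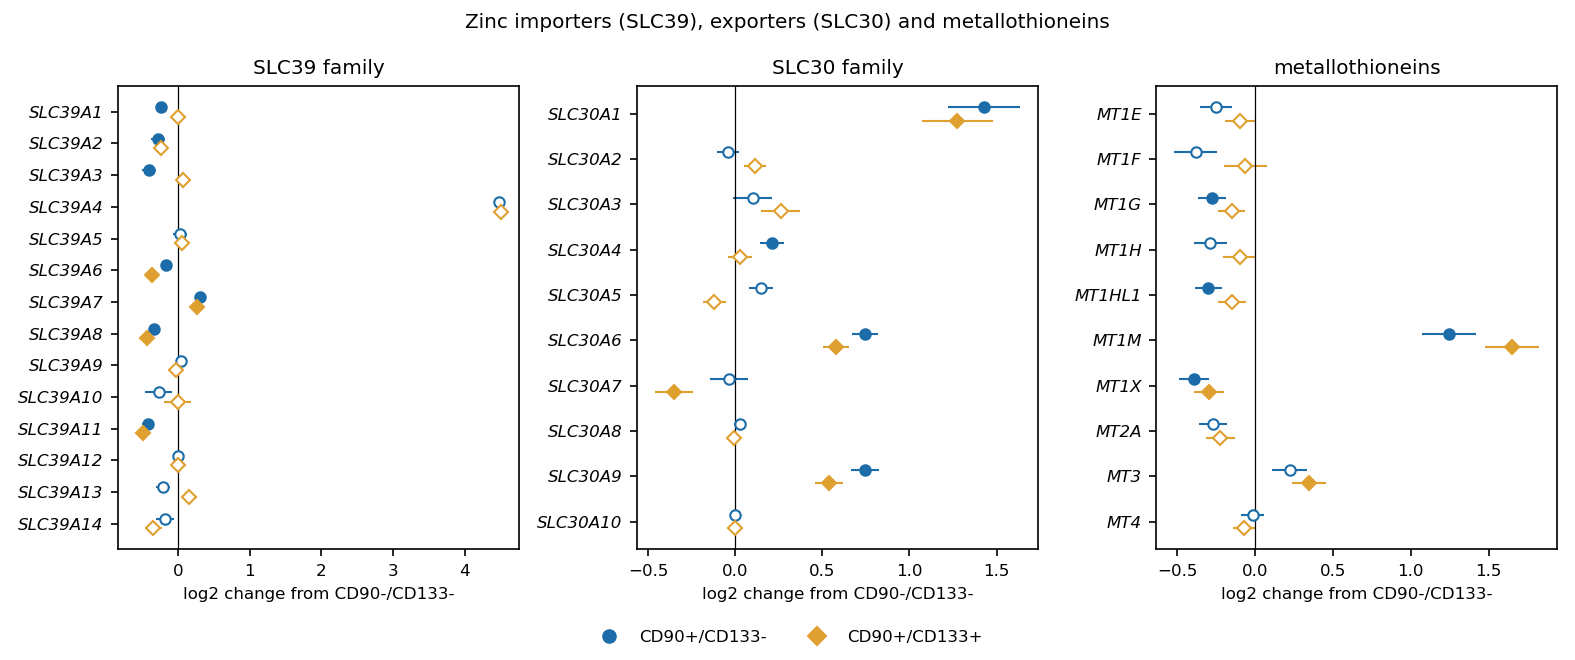
Log2 change from CD90-/CD133- cells with its standard error for all measured SLC39, SLC30 and metallothionein genes, in CD90+/CD133- (blue circles) and CD90+/CD133+ cells (yellow diamonds), with axes scaled for each family. Filled symbols were called by limma, SLC39A4 was not tested and has no error bar, and MT1M (1.25 and 1.65), SLC30A1 (1.43 and 1.28), SLC30A6 and SLC30A9 lie to the right of their families.

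Of 4 measured genes listed as responding to metals beside the metallothioneins, GCLC, the catalytic subunit of the enzyme that starts glutathione synthesis, was higher in CD90+/CD133- (1.19, 2.28-fold, limma adjusted p = 0.0039) and CD90+/CD133+ cells (0.87, adjusted p = 0.0192). TXNRD1, a thioredoxin reductase, was lower in CD90+/CD133+ cells (-0.21, adjusted p = 0.0194). The others were not called in either comparison.

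The genes whose profile over the 15 arrays was closest to that of SLC39A4, by the root mean square difference of log2 values centred on each gene's mean, were SOX7 (0.470), AFAP1-AS1 (0.509), CBFB (0.542), DIRAS3 (0.569) and BASP1 (0.583). Among all genes SLC30A1 ranked 204 by this measure, MTF1 566 and SLC39A7 2497, while the other members ranked 15446 or further down. The measure weighs the size of a change, so a gene that moved in step but less than SLC39A4 ranks low.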

How the data were processed

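RNA of 3 sorted PEO1 fractions (5 arrays each, 15 in all) was hybridized by the authors to Affymetrix U133 Plus 2.0 expression arrays, and the authors normalized between arrays by cross-correlation. What they deposited is 1 linear intensity for each probe set and array, never under 5. The probe summary software is not given in the sources used here. Authors' comparisons were not used. Before log2, any value under 16 was raised to 16. The brightest probe set on average over the 15 arrays stood for a gene, and members were also tested as probe sets over 54613 probe sets. Differences were tested with limma 3.58.1 in R 4.3.3 (lmFit, eBayes, 2-sided, Benjamini-Hochberg over 19775 genes, called at 0.05), with fraction and replicate number as terms. Arrays have no read depth, and 5 per fraction limit the precision. The design text speaks of triplicates while the labels number 5, and the labels were used. The methods describe 5 biological replicates for the CD90-/CD133- and CD90+/CD133- fractions, and nothing used here says so of the third, so its p-values may measure technical spread.

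Replicate numbers pair the arrays, since same-numbered samples carry a common code in the labels (numbers 4 and 5 share 1 code). Same-numbered arrays of CD90+/CD133- and CD90-/CD133- cells deviated together over 9988 genes (r = 0.787, 0.405, 0.20, 0.467 and 0.642, highest between numbers 0.193). For CD90+/CD133+ against CD90-/CD133- cells r was 0.206 in replicate 3, below the highest between numbers (0.229), and 0.48 or more in the others. Between the CD90+ fractions it was 0.371 in replicate 3, below 0.384, and 0.588 or more in the others.

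The members and lists were chosen with earlier results of these data known. The text names the 10 members, up to 4 called genes of largest change in each list (all where under 6 were called), the 5 genes most like SLC39A4 in profile, and the chromosomal neighbours by their median. SLC39A10 is given in full as a member. Lists were those of the SLC39 and SLC30 families, metallothioneins, other metal-responsive genes, iron, copper and manganese genes, and markers of the sort, of ovarian carcinoma epithelium, leukocytes, endothelium, fibroblasts and red blood cells (the last summed to 59.1 to 87.17 over all arrays). The fit was tested on simulated data. Alternatives were other normalizations, floors, filters, blocks, probe-set rules, the methods' fold rule and t-test, and leaving out arrays. Sequences are from RefSeq.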

Additional observations from a re-analysis of the deposited data

Results flagged for a closer look

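In 3 of the 30 groups of 5 arrays tested, 1 array lay far from the other arrays of its fraction by Dixon's criterion, which chance meets in about 1 of 20 groups. MTF1 read 654.5 in CD90+/CD133- replicate 5, above 365.1 to 416.2 on the other arrays of that fraction. That array also had the lowest SLC39A4 (243.4), MT1X (6032) and MT2A (8475) and the highest SLC30A1 (769.9) and SLC39A14 (1459) of its fraction. SLC30A1 read 487.3 in CD90+/CD133+ replicate 5, below 568.3 to 591.5 on the others. SLC39A7 read 230.2 in CD90+/CD133+ replicate 2, below 265.2 to 279.8 on the others.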

How the results depend on the processing

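SLC30A1, MTF1, SLC39A7 and SLC39A8 kept their direction and their call against CD90-/CD133- cells in every limma fit run, with any array or replicate number left out too. MT1X and SLC39A6 in CD90+/CD133- cells were not called with those fractions alone (limma adjusted p = 0.0842 and 0.0577). The count of called genes among the 9 members was 6 in both comparisons and ranged from 5 to 8 in both when arrays were left out. It was 3 in CD90+/CD133- cells (SLC30A1, MTF1 and SLC39A7) with the methods' t-test after Benjamini-Hochberg adjustment, and 2 in both with the methods' 1.5-fold rule. For the 33 zinc family genes tested the count was 15 and 11, and 10 to 18 and 8 to 13 with arrays left out. It was 7 and 7 without the replicate block (4 higher and 3 lower, then 5 and 2), 6 and 7 with the t-test (4 and 2, then 5 and 2) and 4 and 3 with the fold rule (all higher), and 9 in CD90+/CD133- cells with the arrays of those fractions alone. Over all genes the counts were 6399 and 6163 (4871 to 6367 and 4746 to 6529 with arrays left out), 3473 and 3761 with the t-test, 2717 and 2622 with the fold rule, and 4060 in CD90+/CD133+ cells without the replicate block. The cause was not tested.

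The comparison between the CD90+ fractions depended on the arrays kept and on the fit. Its counts over all genes, members and zinc families were 912, 1 and 3, and 0 to 1023, 0 to 1 and 0 to 3 with arrays left out, with 0 calls by limma over all genes without replicate 4. Without the replicate block they were 95, 0 and 1, with these fractions alone 19, 0 and 0, with the t-test 0, 0 and 0 (2188 genes and 6 zinc family genes unadjusted) and with the fold rule 217, 0 and 0. The label code as block gave 422 and 0 for all genes and members, a floor of 64 gave 574 genes, a mean log2 of at least 6 gave 1799 genes and 6 zinc family genes, and the mean of probe sets gave 5 zinc family genes.

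Direction turned only where a change was not called. The largest such changes were those of SLC39A14 (-0.16) and SLC39A8 (-0.10) between the CD90+ fractions. SLC39A10 in CD90+/CD133+ against CD90-/CD133- cells was at 0.028 with median centring and at -0.16 to 0.12 with arrays left out. Between the CD90+ fractions SLC39A7 was at 0.0036 with median centring and -0.0767 to 0.0272 with arrays left out, SLC39A8 was at 0.018 with the mean of probe sets, and SLC39A14 (-0.22 to 0.0127), MT2A (-0.0474 to 0.0889) and MTF1 (-0.16 to 0.0315) turned with arrays left out. SLC39A14 in CD90+/CD133+ cells was called with those fractions alone, with the mean of probe sets, with a floor of 1 and with a mean log2 of at least 6 (limma adjusted p = 0.0382, 0.0464, 0.041 and 0.0189). Arrays give no depth, and dim probe sets, among them SLC39A4 in CD90-/CD133- cells, limit the folds.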

Other observations

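Of 11 measured genes of iron, copper and manganese handling, 2 were higher and 2 lower in CD90+/CD133- cells, a count near the 32.4% of all genes called and below the 52.7% of the brighter ones. In CD90+/CD133+ cells 3 were higher and 5 lower, beside 31.2% and 50.7%. SLC40A1, which encodes the iron exporter ferroportin, spanned 143 to 469.5 in CD90-/CD133- cells, 36.1 to 116.7 in CD90+/CD133- and 30.48 to 122.3 in CD90+/CD133+ cells, without overlap (log2 changes -1.95 and -1.96, limma adjusted p = 9.57e-07 and 8.84e-07). TFRC, the transferrin receptor, was higher by 0.39 and 0.32 (limma adjusted p = 0.0018 and 0.00533). ATP7B, a copper-exporting ATPase, was higher by 0.95 and 0.46 and was lower in double-positive than in single-positive cells (-0.49, limma adjusted p = 0.0317). ATP7A, also a copper-exporting ATPase, was lower in CD90+/CD133+ cells against CD90-/CD133- cells (log2 change -0.35, limma adjusted p = 0.0181). In CD90+/CD133- cells ATP7A was at -0.09 and not called. SLC31A1, the copper importer, was lower by log2 changes of -0.22 and -0.32. SLC11A2, an importer of iron and manganese, and FTL, the ferritin light chain, were lower in CD90+/CD133+ cells against CD90-/CD133- cells (-0.30 and -0.48).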
